A study of Rattus norvegicus with 2 samples.

Results

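Heat shock proteins and DnaJ proteins were examined in rat microglia, the resident macrophages of the brain, after 3 h without oxygen and glucose (oxygen-glucose deprivation, OGD), a treatment of cultures that models ischaemia. The genes were those whose symbol starts with Hspa, Hspb, Hspd, Hspe, Hsph, Hsp90 or Dnaj, together with Cryab, Bag3, Chordc1, Ahsa1, Stip1 and Hsf1, taken from probe sets that the platform annotation assigns to 1 gene. This gave 104 probe sets for 70 genes, of 14217 genes named in this way on the array. Total RNA came from microglial cells on a Sprague Dawley background grown in DMEM with fetal calf serum, and was measured in 1 OGD sample and in 1 resting control sample that was not exposed. Both groups carried the same strain background and medium, and neither an age, a number of animals nor a period of reoxygenation is given in the sources used here.

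Each group had 1 array and no replicate. The differences below therefore have no test and no error between cultures, and describe these 2 arrays. The deposited values are linear intensities, and the median over all probe sets other than array controls served as a floor of measurement, at 19.7 on the OGD array and 19.6 on the resting array. Where a gene had several probe sets, the brightest one on average stood for it, and a gene counted as measured if either array placed it above the floor. Of the 70 genes 54 were measured, 52 of them on both arrays and 2 on the OGD array only. Intensities of different probe sets depend on the probes, so levels are not compared between genes, except that intensities of marker genes are summed below.

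Heat shock proteins are molecular chaperones that bind unfolded proteins and help them fold, hold them in solution or pass them on for degradation. Hsp70 proteins do this in cycles of ATP hydrolysis, DnaJ proteins (Hsp40) deliver clients and trigger that hydrolysis, and Hsp110 proteins exchange the nucleotide. Hsp90 acts on clients passed on from Hsp70, Hsp60 with Hsp10 forms a folding chamber in mitochondria, and small heat shock proteins hold clients without ATP. The transcription factor Hsf1 induces many of these genes when unfolded proteins accumulate in the cytosol, while the set in the endoplasmic reticulum is induced by the unfolded protein response.

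The binding elements of both programmes can be read in the promoters, and they are shown here because they name the genes below whose promoters carry the letters of each. RefSeq promoter windows of assembly GRCr8, 250 bases before to 50 after each gene's start, were matched by gene ID for 57 of the 70 genes. A heat shock element of 3 alternating units was searched as GAANNTTCNNGAA or its reverse complement TTCNNGAANNTTC, and was found in 5 of these 57 windows and in 0.798% of all 33469 windows. The 5 belong to Hspd1, Hspe1, Chordc1, Dnaja1 and Hsph1. Those of Hspd1, Hspe1 and Chordc1 also hold at least 4 units in a row, GAANNTTCNNGAANNTTC or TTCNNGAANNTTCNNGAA, which contain the 3-unit form and occur in 0.0478% of all windows. Hspd1 and Hspe1 lie head to head on opposite strands of chromosome 9, and their windows share 211 bases that contain an element. The stretches below run 5′ to 3′ on the gene's own strand, with the heat shock element, or overlapping matches to it, in capitals. They lie at chr9:64084077-64084326 for Hspe1, chr8:23650828-23650856 for Chordc1, chr5:60638405-60638433 for Dnaja1 and chr12:10427312-10427364 for Hsph1, all on the plus strand.
Hspe1: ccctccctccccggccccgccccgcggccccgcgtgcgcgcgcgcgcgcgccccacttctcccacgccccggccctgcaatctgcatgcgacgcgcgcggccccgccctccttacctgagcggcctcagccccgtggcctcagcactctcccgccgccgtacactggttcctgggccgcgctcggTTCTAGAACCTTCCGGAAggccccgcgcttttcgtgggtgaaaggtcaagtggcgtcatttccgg
Chordc1: ccgGAACGTTCGGGAAGATTCCTGAAgca
Dnaja1: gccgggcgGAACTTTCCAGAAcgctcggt
Hsph1: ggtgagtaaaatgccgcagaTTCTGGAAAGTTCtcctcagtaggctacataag

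The element of the unfolded protein response, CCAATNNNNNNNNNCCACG, was searched on both strands and was found in 3 of the 57 windows, those of Hspa5, Hsp90b1 and Dnajc3, and in 0.0657% of all windows. The window of Hsp90b1 held it on both strands, so that both copies are in capitals there. The stretches lie at chr3:38452766-38453015 for Hspa5 and chr15:102432514-102432572 for Dnajc3 on the plus strand, and at chr7:23012327-23012489 for Hsp90b1 on the minus strand. A match describes these letters and says nothing of whether a factor was bound.
Hspa5: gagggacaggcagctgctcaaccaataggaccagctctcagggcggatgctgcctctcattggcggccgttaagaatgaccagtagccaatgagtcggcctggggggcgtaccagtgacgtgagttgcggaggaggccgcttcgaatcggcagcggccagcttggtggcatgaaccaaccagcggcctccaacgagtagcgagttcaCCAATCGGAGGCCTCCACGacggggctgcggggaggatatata
Hsp90b1: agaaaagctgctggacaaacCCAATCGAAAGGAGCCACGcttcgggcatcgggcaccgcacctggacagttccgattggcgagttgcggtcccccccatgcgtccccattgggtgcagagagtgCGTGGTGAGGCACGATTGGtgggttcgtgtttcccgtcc
Dnajc3: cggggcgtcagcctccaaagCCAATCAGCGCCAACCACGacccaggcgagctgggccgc

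The comparison of OGD with rest asked which transcripts differed by at least 1.5-fold, the threshold that the series' design text names. None of the 54 measured heat shock and DnaJ genes did so, in either direction, against 0.115% of all 9580 measured genes, of which 0.0731% were higher and 0.0418% lower by that much. Their differences, as log2 intensity on the OGD array minus log2 intensity on the resting array, ran from -0.34 for Dnajc5 to 0.35 for Dnajc18. The median difference was -0.0083, against -0.0076 for all measured genes, and it was 0.0051 after quantile normalization and 0.0035 after removal of a loess trend. Of the 54 genes 22 were higher on the OGD array, 29 were lower and 3 had identical values, while 42.8% of all measured genes were higher and 51.3% lower. Quantile normalization and loess each turned this split to 28 higher and 26 lower. Quartiles were -0.11 and 0.035, against -0.10 and 0.079 for all measured genes. The median size of the difference, whatever its direction, was 0.076, against 0.093 for all measured genes.

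**Figure D1:**
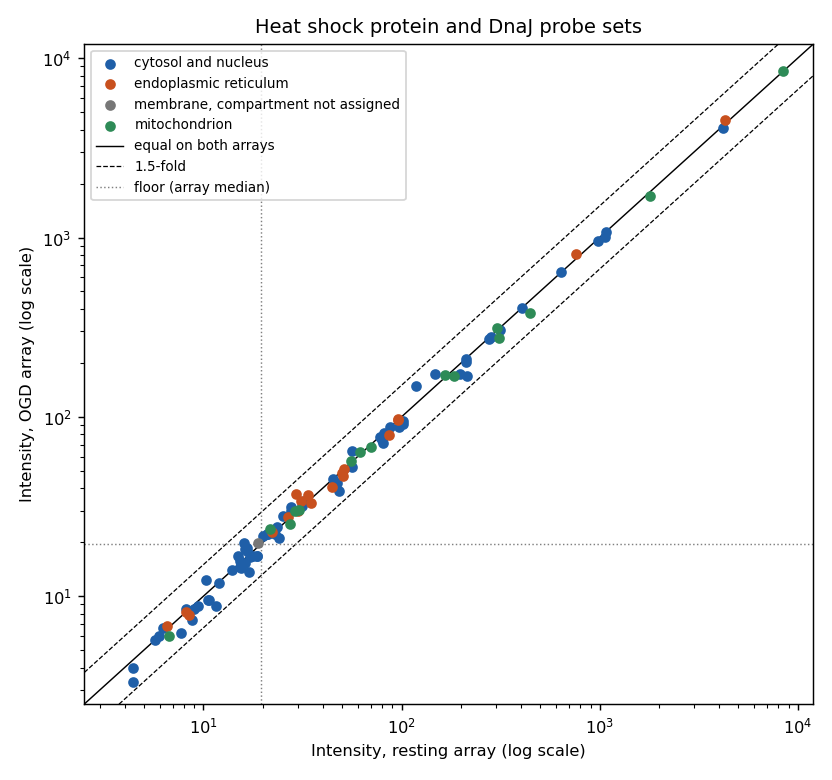
Intensity of each of the 104 heat shock and DnaJ probe sets on the OGD array (vertical, log scale) against the resting array (horizontal, log scale), coloured by cell compartment, with the line of equality, 1.5-fold lines and the floor of each array. Probe sets above both floors follow the line of equality, and none of them lies outside the 1.5-fold lines.

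**Figure D2:**
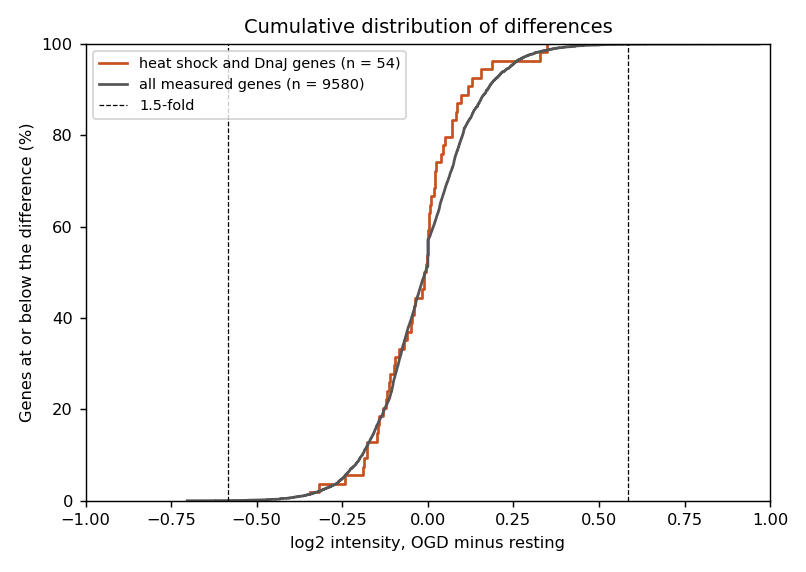
Cumulative share of genes (percent, vertical) against the log2 difference, OGD minus resting (horizontal), for the 54 measured heat shock and DnaJ genes and for all 9580 measured genes, with dashed lines at 1.5-fold. Both curves cross 50% near 0, and the heat shock and DnaJ genes end at 0.35 on the higher side.

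At a smaller difference of 1.2-fold, 4 of the 54 genes stood out, which is 7.41% against a background of 7.53% of all measured genes. Dnajc18 and Dnajb1 were the 2 higher ones, where the background is 3.56%, and Dnajc5 and Dnajb5 the 2 lower ones, where it is 3.97%. The shares are near those of all genes, so these 4 are described as single values only. With the mean over probe sets 1 of 54 genes was higher and 1 lower by this much. With the floor at the 30th percentile it was 3 and 3 of 65, and with no floor 3 and 5 of 70. The share of all genes past 1.2-fold was not counted at these settings, so these counts have no background. The spread between probe sets of 1 gene was the one error that could be estimated, with an SD of 0.147 over 1902 genes having at least 2 probe sets above both floors. It covers noise that differs between probe sets and leaves out the spread between cultures. All 4 genes lay beyond 0.294, which is 2 of these SDs, as did 5.25% of all measured genes.

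Among Hsp70 proteins the stress-inducible Hspa1a, a classical readout of heat shock, had an intensity of 19.9 on the OGD array and 15.9 on the resting array. Only the OGD value was above the floor, so the difference is a bound of at least 1.01-fold higher. Without a floor the log2 difference would be 0.32, with the resting value under the median of its array. Hspa5, the main Hsp70 of the endoplasmic reticulum (BiP), had 4538 on the OGD array and 4275 on the resting array, a log2 difference of 0.086. Hspa9, which drives protein import into mitochondria (mortalin), had 313 on the OGD array and 302 on the resting array. All 3 of its probe sets above both floors were higher on the OGD array, by 0.050, 0.053 and 0.12 on the log2 scale.

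Hspa13, a microsome-associated relative, had 29.9 on both arrays. The distant relatives Hspa12a and Hspa12b had log2 differences of 0.12 and 0.017, with Hspa12a close to the floor at 21.7 on the OGD array and 20.03 on the resting array. Thus 5 of 6 measured Hsp70 genes were higher on the OGD array and 1 was equal, where 42.8% of all measured genes were higher. Hspa1a passed the floor on the OGD array only, so it could only count as higher. The difference of Hspa1a is known only as a bound, and the other 5 genes lay inside 1.2-fold. Apart from Hspa1a, the higher genes stayed higher under median centring, quantile and loess scaling. Hspa1l, Hspa2 and Hspa14 stayed under both floors, so no fold is given for them. Without a floor Hspa2 and Hspa14 would count as lower and Hspa1l as equal, so the split of this family depends on the floor. The constitutive Hspa8 and the Hspa1b copy had no probe set naming them alone and are not analysed here. In Hsp110, Hspa4 had 34.0 on the OGD array and 32.3 on the resting array, a log2 difference of 0.071, and Hsph1 had 88.2 on the OGD array and 87.0 on the resting array. Hsph1 is one of the genes with a heat shock element shown above, and its difference was 0.020. Hspa4l was under the floor on both arrays.

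Of the Hsp90 genes, the constitutive cytosolic Hsp90ab1 had 4083 on the OGD array and 4195 on the resting array. Its other probe set had 957 on the OGD array and 984 on the resting array, and the 2 log2 differences, -0.039 and -0.040, were nearly the same. Hsp90b1, the Hsp90 of the endoplasmic reticulum (Grp94), had 807 on the OGD array and 756 on the resting array, a log2 difference of 0.095. Together with Hspa5 it was slightly higher on the OGD array, by 1.07-fold and 1.06-fold, while Dnajc3, the other gene with an element of the unfolded protein response, was 1.09-fold lower at 79.5 on the OGD array and 86.4 on the resting array. The 3 differences were smaller than the SD between probe sets. The inducible Hsp90aa1 had no probe set naming it alone and is not analysed here.

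Hspd1 (Hsp60) and Hspe1 (Hsp10), which share the promoter shown above, form the folding chamber of the mitochondrial matrix. Hspd1 had 8455 on the OGD array and 8472 on the resting array, a log2 difference of -0.0029 that became 0.031 with loess scaling. Hspe1 had 1703 on the OGD array and 1789 on the resting array, a log2 difference of -0.071 that was -0.036 with loess scaling. Both differences were smaller than the SD between probe sets.

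Small heat shock proteins were mostly dim. Hspb1 (Hsp27) had 13.6 on the OGD array and 17.0 on the resting array, under the floor on both, as were Hspb2, Hspb3, Hspb8 and Hspb9. Cryab, which encodes alpha-B-crystallin, had 31.5 on the OGD array and 27.7 on the resting array, a log2 difference of 0.19. Hspb6 had 28.0 on the OGD array and 25.1 on the resting array, a log2 difference of 0.16. Hspb7 had 209 on the OGD array and 211 on the resting array, but its other probe set had 64.8 on the OGD array and 56.0 on the resting array, a log2 difference of 0.21 against -0.012. With 3 of 8 genes measured, the median of 0.16 rests on Cryab and Hspb6, both not far above the floor, and it was -0.012 with either the lower or the higher floor. Hspbp1 and Hspbap1 carry an Hspb symbol without being small heat shock proteins. Hspbp1, a nucleotide exchange factor of Hsp70, had 203 on the OGD array and 211 on the resting array, and Hspbap1, which binds Hspb1, had 91.7 on the OGD array and 101.2 on the resting array.

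The regulator Hsf1 had 87.6 on the OGD array and 97.0 on the resting array, a log2 difference of -0.15. The Hsp90 co-chaperones Ahsa1 and Stip1 act on its ATPase and link it to Hsp70. Ahsa1 had 1075 on the OGD array and 1078 on the resting array, and Stip1 had 305 on the OGD array and 316 on the resting array. Chordc1, another Hsp90 partner, with a heat shock element in its window, had 279 on the OGD array and 282 on the resting array. All 4 of these genes were lower on the OGD array, Hsf1 most at 1.11-fold, where 51.3% of all measured genes were lower. The differences of Ahsa1, Chordc1 and Stip1 were smaller than the SD between probe sets of 0.147. Ahsa1 and Chordc1 turned higher with loess scaling, at 0.030 and 0.013. Bag3, a co-chaperone of Hsp70 in autophagy, had 15.8 on the OGD array and 15.3 on the resting array, under the floor on both.

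**Figure D3:**
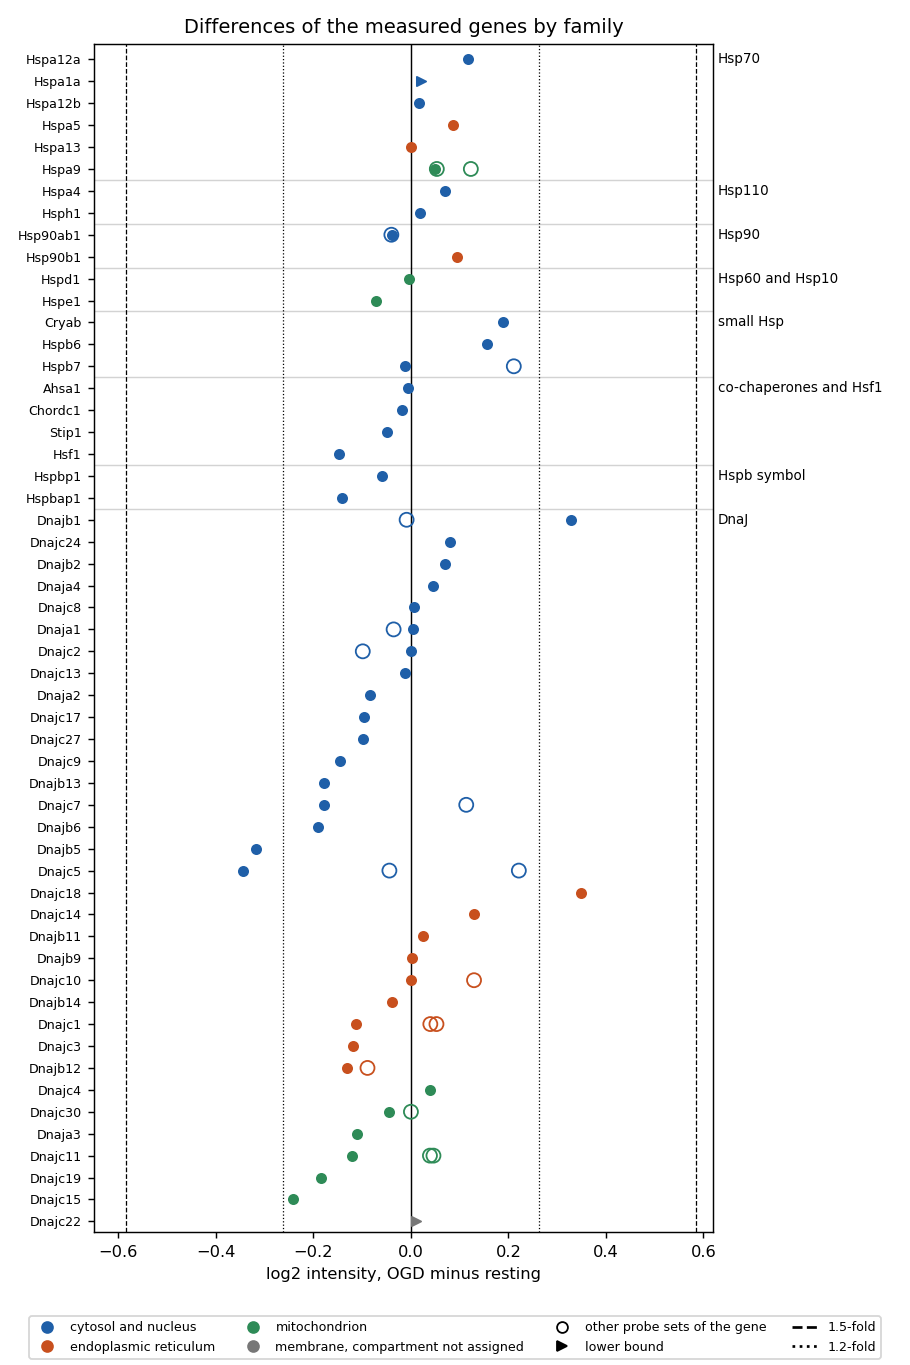
Log2 difference of intensity, OGD minus resting (horizontal), for each of the 54 measured genes (rows) by family and coloured by compartment; filled points are the probe set standing for the gene, open points further probe sets of that gene above both floors, and triangles lower bounds. Every point lies inside the dashed 1.5-fold lines, and Dnajc18, Dnajb1, Dnajb5 and Dnajc5 are the 4 filled points outside the dotted 1.2-fold lines.

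DnaJ proteins share a J domain that stimulates Hsp70, and 33 of their 39 genes were measured, 12 of them higher, 19 lower and 2 equal on the OGD array. Over all measured genes 42.8% were higher and 51.3% lower. The 12 include Dnajc22, which passed the floor on the OGD array only and so could only count as higher. In the cytosol and nucleus 6 of 17 measured genes were higher and 10 lower, with a median log2 difference of -0.084 that was -0.047 after quantile normalization. Dnajb1 (Hsp40), the main heat-inducible partner of cytosolic Hsp70, had 149 on the OGD array and 119 on the resting array, which is 1.26-fold higher. Its other probe set had 81.2 on the OGD array and 81.7 on the resting array, a log2 difference of -0.0089, so the difference was seen in 1 of the 2 probe sets. Dnaja1, with a heat shock element in its window, had 639 on the OGD array and 637 on the resting array. Another probe set of Dnaja1 gave 271 on the OGD array and 277 on the resting array.

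The lower end of this group was held by Dnajc5, Dnajb5 and Dnajb6. Dnajc5, the cysteine string protein of secretory vesicles, had 169 on the OGD array and 214 on the resting array, which is 1.27-fold lower. Its second probe set had 173 on the OGD array and 148 on the resting array, a log2 difference of 0.22, and the third had 22.3 on the OGD array and 23.0 on the resting array. The 3 probe sets thus pointed in both directions, and their mean was -0.056. Dnajb5 had 38.7 on the OGD array and 48.2 on the resting array, 1.25-fold lower, with its other 2 probe sets under the floor on both arrays. Dnajb6, a suppressor of protein aggregation, had 21.2 on the OGD array and 24.2 on the resting array, close to the floor. Dnajc7, which holds tetratricopeptide repeats, had 174 on the OGD array and 197 on the resting array, and a log2 difference of 0.11 in another probe set against -0.18.

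Other cytosolic and nuclear DnaJ genes lay closer to equality or near these. Dnaja2, a general Hsp70 partner, had 1009.9 on the OGD array and 1070.2 on the resting array. Dnajc2, a ribosome-associated factor (zuotin), had 403 on each array, while another probe set had a log2 difference of -0.099. Dnajc9, a histone chaperone, had 42.9 on the OGD array and 47.5 on the resting array. Dnajb13, known from sperm flagella and cilia, had 71.1 on the OGD array and 80.4 on the resting array. Dnajc17 and Dnajc27 had log2 differences of -0.096 and -0.099, and Dnajc13, an endosomal protein, had -0.012. On the other side were Dnajc24 with 0.081, Dnajb2 with 0.069, Dnaja4 with 0.046 and Dnajc8 with 0.0059. Dnajb3, Dnajb4, Dnajb7, Dnajc6, Dnajc12 and Dnajc21 were under the floor on both.

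In the endoplasmic reticulum all 9 DnaJ genes were measured, 4 of them higher, 4 lower and 1 equal. Dnajc18, a transmembrane DnaJ protein, had 37.3 on the OGD array and 29.3 on the resting array, which is 1.27-fold higher, in its single probe set. Dnajc14 had 36.7 on the OGD array and 33.5 on the resting array. Among the partners of Hspa5, Dnajb9 (ERdj4) had 51.2 on both arrays to the digits shown, and Dnajb11 (ERdj3) had 97.4 on the OGD array and 95.8 on the resting array. Dnajc10 (ERdj5), a disulfide reductase, had 95.9 on both arrays in one probe set and a log2 difference of 0.13 in another. Dnajb12, a membrane protein that helps in degradation of misfolded proteins, had 40.5 on the OGD array and 44.3 on the resting array, and both of its probe sets were lower. Dnajc1 had -0.11 in its brightest probe set and 0.040 and 0.052 in the others, and Dnajb14 had -0.039. Dnajc22, a membrane protein whose compartment was not assigned, had 19.8 on the OGD array and 18.8 on the resting array, above the floor on the OGD array only.

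Mitochondrial DnaJ genes were lower on the OGD array in 5 of 6 cases, where 51.3% of all measured genes were lower, with a median log2 difference of -0.12, of -0.067 with the mean over probe sets and of -0.078 without suffixed probe sets, which include the one standing for Dnajc11. Dnajc15 and Dnajc19 belong to the motor that pulls proteins through the inner membrane. Dnajc15 had 378 on the OGD array and 447 on the resting array, 1.18-fold lower, and Dnajc19 had 274 on the OGD array and 311 on the resting array, 1.14-fold lower. Dnaja3 (Tid1), a matrix partner of Hspa9, had 25.3 on the OGD array and 27.3 on the resting array. Dnajc11, a protein of the outer membrane and cristae contact sites, had 169 on the OGD array and 184 on the resting array, but its other 2 probe sets were higher, by 0.046 and 0.039. Dnajc30 had log2 differences of -0.046 and 0 in its 2 probe sets, and Dnajc4 had 0.039. Over all families 7 of 9 mitochondrial genes were lower, with a median of -0.071, against 18 of 32 in the cytosol and nucleus with -0.012 and 4 of 12 in the endoplasmic reticulum with 0.0011. With the mean over probe sets the mitochondrial median was -0.023. With loess scaling the mitochondrial count was 6 of 9 and the median -0.038, and the medians were 0.0098 in the cytosol and nucleus and 0.0097 in the endoplasmic reticulum. Without suffixed probe sets the mitochondrial count was also 6 of 9, with a median of -0.046. With the floor at the 70th percentile 6 of 8 mitochondrial genes were lower, with a median of -0.058. Of the cytosolic and nuclear genes 17 of 22 were then lower, with a median of -0.055. The medians of both compartments were then nearly the same, while that of the endoplasmic reticulum was 0, with 4 of 9 genes lower. No test of a difference between compartments was made.

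**Figure D4:**
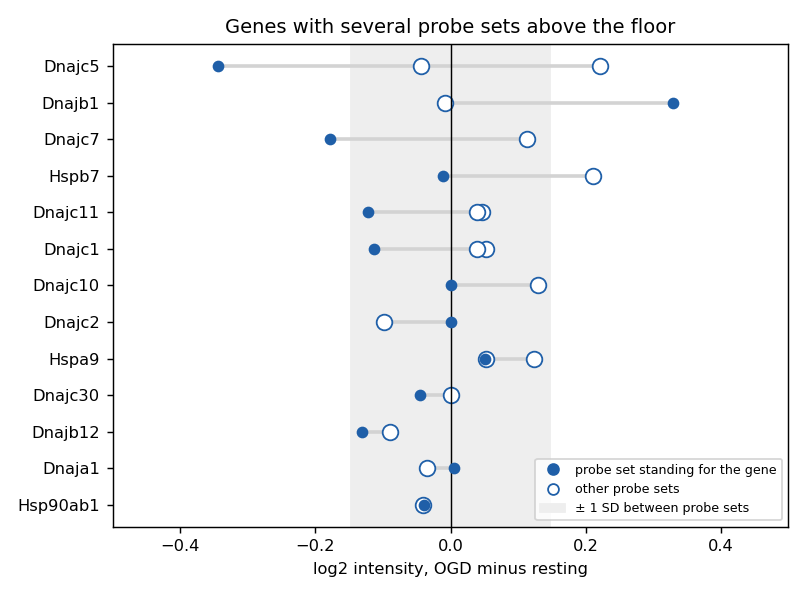
Log2 difference of intensity, OGD minus resting (horizontal), of each probe set above both floors, for the 13 genes with at least 2 of them (rows, by range); filled points stand for the gene, open points are its other probe sets, and the band is 1 SD of 0.147 to each side of 0. Dnajc5 and Dnajb1 have the widest ranges, 0.57 and 0.34, and Hsp90ab1 the narrowest, 0.00085.

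Agreement between probe sets of the same gene is the closest to a repeat that these arrays offer. Of 13 heat shock and DnaJ genes with at least 2 probe sets above both floors, 3 had all of them on the same side of 0, which is 23.1%, against 40.5% of 1902 such genes on the array. The 3 were Dnajb12, Hsp90ab1 and Hspa9. Dnajc2, Dnajc10 and Dnajc30 had 1 probe set with identical values on both arrays, which counts as neither side. The SD between probe sets was 0.141 in these 13 genes, and the SD of the differences over the 52 genes above the floor on both arrays was 0.134.

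The differences can also be read against the promoters. The 5 genes with the 3-unit heat shock element had log2 differences from -0.071 for Hspe1 to 0.020 for Hsph1, with a median of -0.0029, and 39 measured genes on the array with that element had a median of -0.019. A shorter element of 2 units, GAANNTTC or TTCNNGAA, was present in 17 of 57 windows and in 15.9% of all windows. The 12 measured genes among them had differences from -0.19 for Dnajb6 to 0.35 for Dnajc18 with a median of 0.00078, and 953 measured genes on the array with it had a median of 0. The 3 genes with the element of the unfolded protein response had 0.086, 0.095 and -0.12, and 14 measured genes on the array with it had a median of -0.0011.

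Related chaperone genes outside these families were described in the same way. Of 41 listed genes 36 were measured, with 9 higher, 27 lower and none past 1.5-fold, where 51.3% of all measured genes were lower and 0.115% past 1.5-fold. The median log2 difference was -0.040. With quantile or loess scaling 14 were higher and 22 lower, with medians of -0.021 after quantile normalization and -0.018 with loess scaling. Hsf2, a second heat shock factor, had 32.2 on the OGD array and 24.97 on the resting array, 1.29-fold higher. Grpel2, a mitochondrial nucleotide exchange factor, had 40.2 on the OGD array and 32.3 on the resting array, 1.24-fold higher. On the lower side, Bag4, an Hsp70 co-chaperone, had 75.1 on the OGD array and 86.6 on the resting array, 1.15-fold lower. Pfdn1, a subunit of prefoldin, which hands nascent actin and tubulin to the chaperonin TRiC, had 1215 on the OGD array and 1387 on the resting array, 1.14-fold lower. All 5 measured prefoldin subunits were lower, with a median of -0.16 and of -0.13 with loess scaling. Of 7 measured TRiC subunits 5 were lower with a median of -0.019, and 2 were lower with loess scaling with a median of 0.015.

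Markers of microglia and macrophages were measured for 12 of 15 listed genes, of which 11 were lower on the OGD array, with a median log2 difference of -0.098, where 51.3% of all measured genes were lower. Csf1r was above the floor on the resting array only, so its place among the lower ones followed from the floor. Of the 11 genes above both floors 10 were lower. The exception was C1qc, a complement subunit, which had 32.3 on the OGD array and 26.3 on the resting array and was the 1 gene of the list past 1.2-fold, 1.23-fold higher. The 13 listed microglia and macrophage genes on the array, Fcer1g under both floors included, had a summed intensity of 1341 on the OGD array and 1398 on the resting array. Trem2 and Cd68 weigh most in this sum, at 583 and 360 on the OGD array, and these weights depend on the probes too. The astrocyte markers Gfap, at 36.9 on the OGD array and 27.4 on the resting array, and Slc1a2, at 32.0 on the OGD array and 23.8 on the resting array, were 1.35-fold higher each, and the summed intensity of the 5 astrocyte markers was 107 on the OGD array and 87.5 on the resting array, while Slc1a3, Aqp4 and Aldh1l1 were under the floor on both. All 4 neuron markers were under the floor on both arrays. Vwf and Col1a1 were each the 1 measured marker of endothelium and of fibroblasts, at 56.4 and 48.4 on the OGD array and 46.3 and 41.9 on the resting array. Of the oligodendrocyte lineage markers 3 were measured, 1 higher and 2 lower on the OGD array. Intensities on the OGD and resting arrays were 35.7 and 30.5 for Mbp, 37.1 and 39.1 for Sox10, and 19.9 and 21.1 for Cspg4. The part of these markers in the differences above was not tested, and fewer cells of a type cannot be told apart from less RNA per cell in such samples.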

How the data were processed

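Total RNA of 1 OGD and 1 resting microglial sample was labelled with biotin by in vitro transcription, per the labels' protocols. The deposited values are linear intensities, with 1 value for each probe set on each array. How the authors corrected, summarised or normalized them is not given in the sources used here. Quartiles were nearly the same, 8.47 and 48.0 on the OGD array and 8.45 and 48.2 on the resting array, so a shift common to most genes would not show. The files name no genome build.

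Of 31099 probe sets 57 were array controls, 20826 named 1 gene, 436 several and 9780 none. Symbols were updated through Entrez IDs to the RefSeq table of GRCr8, which held 20758 of the 20826 IDs. This changed no heat shock or DnaJ symbol. There were 6 further probe sets that pair such a gene with another one. They were left out and had log2 differences from -0.14 to 0.23. Values under the floor were raised to it before the difference was taken, and a gene above the floor on 1 array has a bound. With 1 array per group no test was possible, and the number of arrays limits the precision. Genes were counted at 1.5-fold and 1.2-fold. The calculation was tested on simulated arrays for recovery of added 2-fold differences in genes well above the floor. Differences of 1.5-fold were also added, but their recovery was not required. The test therefore does not bear on the count at 1.5-fold. Python 3.11.15, pandas 2.3.3 and statsmodels 0.14.6 were used. Families and compartments were assigned from general knowledge of the proteins, and Dnajc22, first listed under the endoplasmic reticulum, was taken out of it after the data were in hand.

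The genes, the lists of related chaperones and markers, and the thresholds were chosen with earlier results of these data known. Any of the 70 genes could be named. Given in full were those past 1.5-fold, the 6 with the largest difference in each direction, the largest in each direction in each family and compartment, and a fixed set of well-known chaperones. From the related list the 2 largest in each direction were named. The marker genes named were chosen from their list after their values were seen. Alternatives were 3 scalings (median centring, quantile and a loess span of 0.3), a lower floor (30th percentile), a higher one (70th percentile) or none, genes above both floors, averages over a gene's probe sets, leaving out suffixed probe sets, a pseudocount at the 25th percentile, updated symbols, other thresholds and a count of probe sets.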

Additional observations from a re-analysis of the deposited data

How the results depend on the processing

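The count of 0 heat shock and DnaJ genes past 1.5-fold was also 0 under each of the floors, scalings, probe set rules, symbol rules and the 2-fold threshold tried, and it was 4 at a threshold of 1.2-fold. The median over the measured genes was -0.046 with the floor at the 70th percentile, with 39 genes measured, and -0.028 with no floor, over all 70. The medians over all genes of the array were -0.016 and 0 at these settings. How close the heat shock and DnaJ median lay to that of all genes thus depended on the floor. The median of cytosolic DnaJ genes was -0.047 after quantile normalization. That of small heat shock proteins was -0.012 with the floor at the 30th or 70th percentile and -0.037 with no floor, since the number of measured genes is then 7, 1 and 8 in place of 3. Among the genes given in full, 399 of 404 alternative values stayed within 1 SD between probe sets of the reported value. The 5 others were Dnajb1 at 0.16 and Dnajc5 at -0.056 with the mean over probe sets, and Hspa1a at 0.32 with the lower or no floor and 0.22 with a pseudocount. Many of the 404 values could not differ, so their count is no measure of robustness. Updated symbols changed no gene here, and a lower floor leaves a gene above both floors as it is. Averaging likewise leaves a gene with 1 probe set as it is. The sign changed in 11 of the 404 values, in 6 genes: Ahsa1, Chordc1, Hspb7, Hspd1, Dnaja1 and Dnajb9. Counting Dnajc22 in the endoplasmic reticulum, an alternative chosen after seeing the data, gave a median of 0.0011 for the DnaJ genes there in place of 0. Signal over background limits the small heat shock proteins most, with 5 of 8 under the floor on both arrays. No paired analysis was possible because each group has 1 array.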

Other observations

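Exactly identical intensities on both arrays were found for 8 of the 104 heat shock and DnaJ probe sets and for 8.70% of all probe sets other than controls. They include the probe sets standing for Dnajc2, Dnajc10 and Hspa13. Among the 96 unequal probe sets of these genes, 4 differed between the arrays by a whole multiple of 0.5 intensity units, within a tolerance of 5e-05, as did 2.97% of unequal probe sets on the array. Hspbap1 was one of them, with 9.5 units less on the OGD array, 91.7 against 101.2, and Dnajc19 another, with 274 against 311. The others were the second probe sets of Hsp90ab1 and of Dnajb1.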
